A study of Caenorhabditis elegans with 24 samples.

Results

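Expression of 10 Caenorhabditis elegans genes of trehalose, glycerol and late embryogenesis abundant (LEA) protein metabolism was examined in 6 genotypes. The genes were chosen by name and matched to the gene identifiers of the deposited tables: lea-1, tps-1, tps-2, gob-1, tre-1, tre-2, tre-3, tre-4, gpdh-1 and gpdh-2. They are 10 of 19320 genes in the table of the wild-type background and of 19718 genes in the table of the daf-2 background. All 10 passed the filter on low values in both tables.

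Trehalose is a sugar of 2 glucose units that nematodes use as a store, and it helps membranes and proteins to withstand loss of water. Trehalose-6-phosphate synthases join glucose-6-phosphate to an activated glucose, a phosphatase removes the phosphate, and trehalases split the finished sugar into glucose. Glycerol is the osmolyte that C. elegans accumulates in high salt, and glycerol-3-phosphate dehydrogenase makes its precursor. LEA proteins are highly hydrophilic and are known from plant seeds and other organisms that survive drying. Mutants of daf-2, the insulin/IGF-1 receptor gene, are known for stress resistance and for high trehalose.

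The 24 libraries came from whole animals on the first day of young adulthood, grown at 20 °C on a bacterial lawn, with 4 libraries per genotype. The daf-2 background held daf-2(e1370);bcl-11(bon125), daf-2(e1370);bcl-11(bon144) and their control daf-2(e1370), here called bon125 double mutants, bon144 double mutants and daf-2. The wild-type background held bcl-11(bon125) and bcl-11(bon144), here also called bon125 and bon144 single mutants, and the N2 wild type (wt). All 3 genotypes of the daf-2 background, its control included, carried the e1370 allele. The gene bcl-11 encodes a zinc finger transcription factor. Its bon125 allele is a frameshift that leaves the C-terminal zinc fingers in place and adds residues, and bon144 is an in-frame deletion with an insertion in a conserved domain. Both are hypomorphic alleles made with Cas9 and then backcrossed, and each genotype is 1 strain, so other changes in a strain cannot be told apart from its allele. The comparisons ask whether the bcl-11 alleles change these genes, and whether they do so differently in animals with reduced insulin signalling.

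Values are regularized log values (rLog), a log2 scale on which 1 unit is a 2-fold difference and differences of weakly expressed genes are drawn towards 0. The deposited values hold no read counts, so the depth of each library is unknown and no counting interval can be given. Median rLog over the kept genes was 7.55 to 7.70 in all libraries. The bcl-11(bon144) libraries correlated less with each other (mean r of 0.967 to 0.981) than the libraries of the other 5 genotypes did (0.985 to 0.995), and replicates 1 and 3 of bcl-11(bon144) least. Markers of intestine, muscle, neurons, germ line and oocytes were present in every genotype. Hypodermis markers averaged 5.56 to 5.62 in the daf-2 background. They averaged 3.82 to 4.05 in the wild-type background, where 2 of 3 had a mean of at least 3. Sperm markers were near the filter's limit, averaging 3.68 to 4.38 over the genotypes, and were highest in replicate 3 of bcl-11(bon144) at 6.13. The mutated genes stayed expressed. Transcripts of bcl-11 averaged 7.19 in bon125 double mutants, 7.02 in bon144 double mutants and 7.08 in daf-2, and 6.15 in bcl-11(bon125), 6.65 in bon144 single mutants and 6.37 in wt. Since the alleles are small edits, these levels do not check the labels. Transcripts of daf-2 averaged 6.61 in daf-2 and 6.51 in wt. In whole animals, fewer cells that express a gene and less RNA per cell cannot be told apart.

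The genes lie apart in the genome (assembly WBcel235), and each is annotated as protein coding. lea-1 (WBGene00002263) spans V:10011923-10028168 on the plus strand with 17 transcripts, of which the longest has 4455 bases. tps-1 lies at X:17467121-17474534, tps-2 at II:14600902-14610554, gob-1 at X:15493602-15497504 and gpdh-2 at III:9854074-9859183. The trehalase gene tre-2 lies at IV:6876731-6883442, tre-3 at V:11709769-11715903 and tre-4 at X:13472155-13475926, while tre-1 and gpdh-1 are on chromosome I. Exons of 4 of the genes overlap those of a neighbour. The overlap is 19 bases for lea-1 with acl-2, 24 for tps-2 with arl-3, 51 for tre-4 with efn-3 and 73 for gpdh-1 with gadr-6. The libraries carry no strand information, so strand cannot separate reads of these short stretches. For tps-2 and arl-3, which lie on the same strand, strand could not separate them in any case. No gene of the 10 has the same values as another gene.

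**Figure D1:**
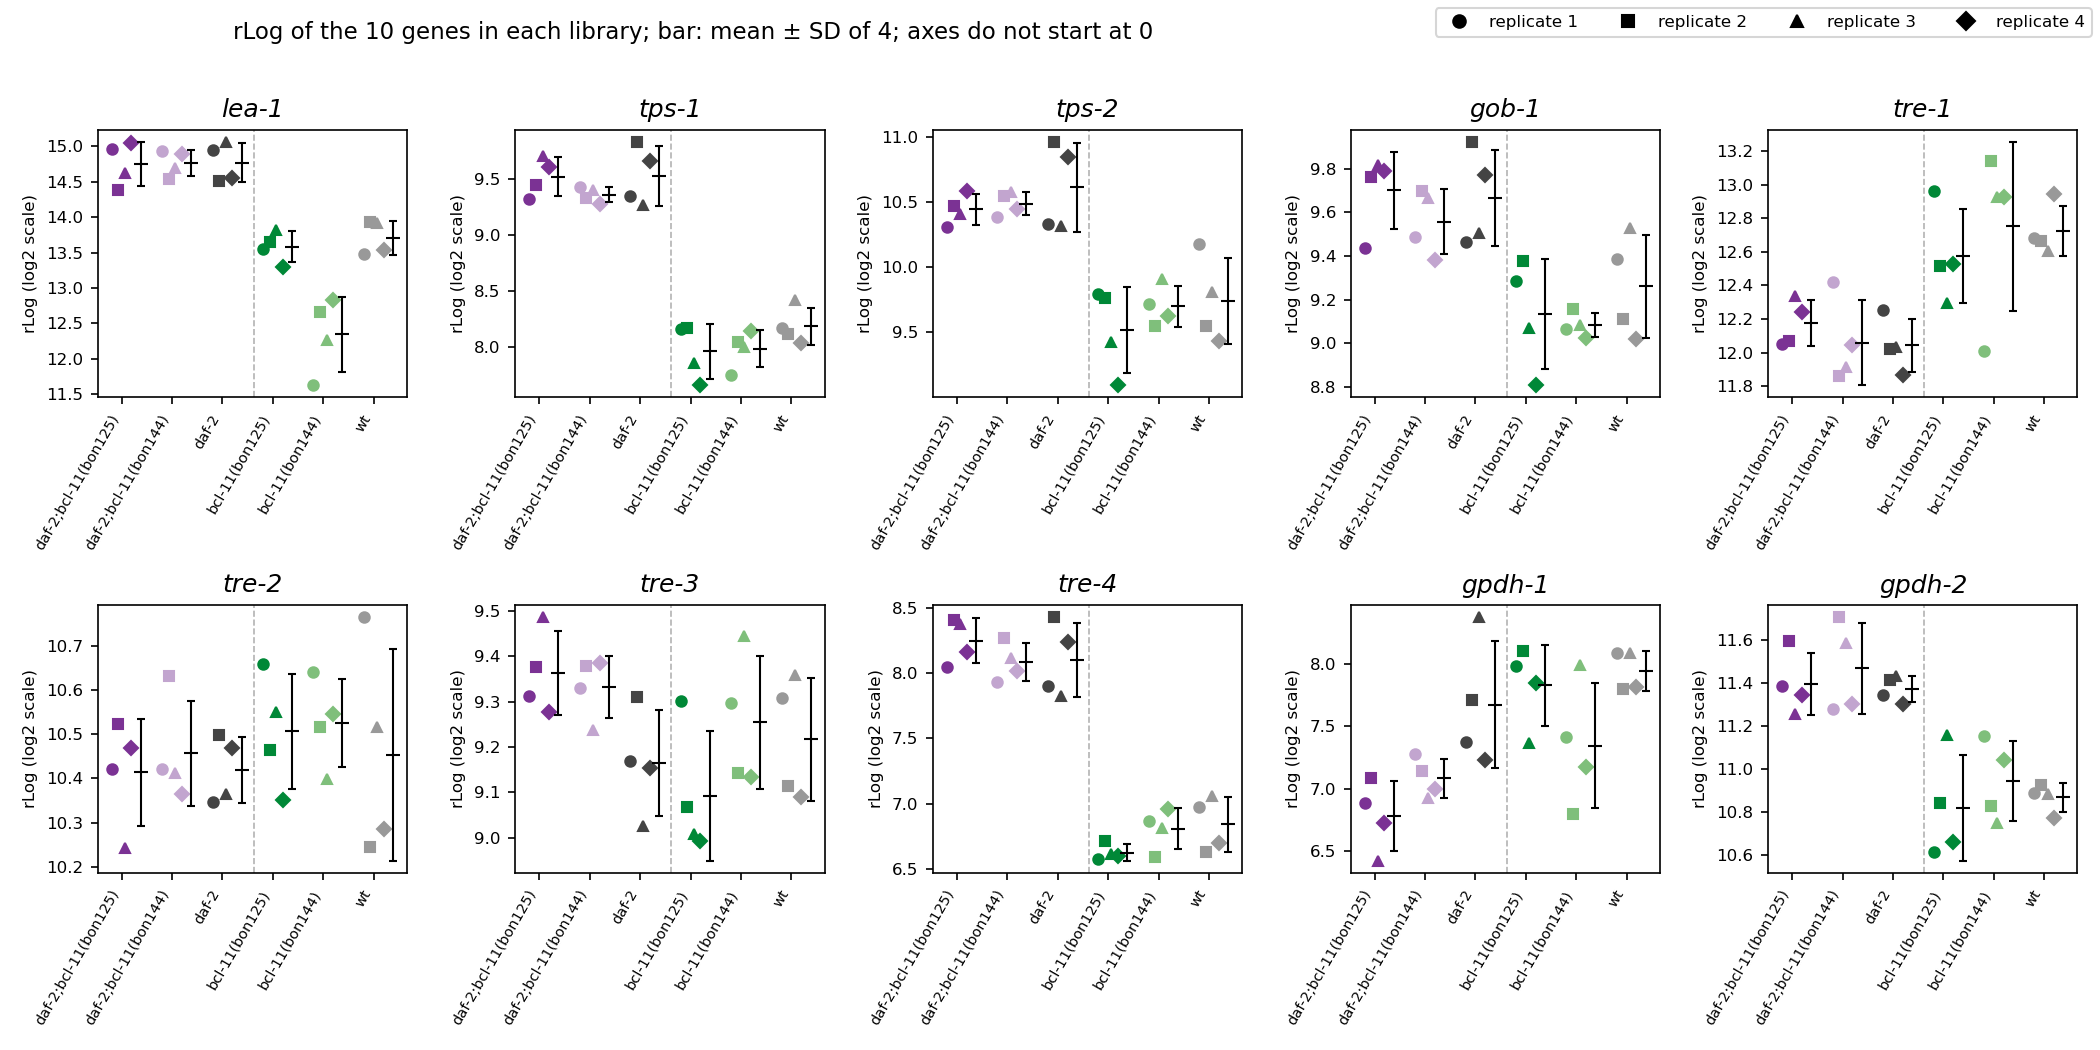
rLog values (log2 scale) of the 10 genes in the 24 libraries, 1 panel per gene, with 1 marker shape per replicate number and bars for the mean and SD of 4 libraries; the dashed line separates the daf-2 background from the wild-type background, which were normalized separately. lea-1 lies between 11.62 and 12.82 in bcl-11(bon144) and at 13.48 or above in wt, and gpdh-1 lies at 7.09 or below in bon125 double mutants and at 7.23 or above in daf-2.

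Per unit of the longest transcript, lea-1 and the trehalase gene tre-1 had the highest levels of the 10 genes in every genotype but bcl-11(bon144), where tre-1 had 11.61, gpdh-2 10.38 and lea-1 10.19. With rLog lowered by log2 of the longest transcript in kilobases, daf-2 animals had 12.61 for lea-1, 10.90 for tre-1, 10.81 for gpdh-2, 9.32 for tre-2, 8.70 for gob-1, 8.67 for tps-2, 8.19 for tre-3, 7.40 for tps-1, 7.28 for gpdh-1 and 7.11 for tre-4. In wt the same measure was 11.58 for tre-1, 11.56 for lea-1, 10.31 for gpdh-2, 9.35 for tre-2, 8.30 for gob-1, 8.24 for tre-3, 7.80 for tps-2, 7.56 for gpdh-1, 6.06 for tps-1 and 5.86 for tre-4. Several neighbours in these orders differed by less than their SD, namely tre-1 and gpdh-2, gob-1 and tps-2, and tps-1, gpdh-1 and tre-4 in daf-2, and lea-1 and tre-1, gob-1 and tre-3, tps-2 and gpdh-1, and tps-1 and tre-4 in wt. The order also depends on which transcript is used. With the shortest annotated transcript, gpdh-2 (11.49) and tps-2 (11.04) exceed tre-1 (10.90) in daf-2, lea-1 has 14.19 in daf-2 and 13.13 in wt, and tre-3, whose shortest transcript has 303 bases, has 10.89 in daf-2 and 10.94 in wt.

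None of the 10 genes passed the test in any of the 10 comparisons. The test was limma over all kept genes, with a call at a Benjamini-Hochberg adjusted p under 0.05 and a change of more than 1.5-fold. For bon125 double mutants against daf-2, 0 of 10 were called against 0.0141% of 14169 genes, and 2 of 10 (gpdh-1 and tre-3) had an unadjusted p under 0.05 against 4.11% of all genes. For bon144 double mutants against daf-2, 0 of 10 were called against 0.0565%, and 1 of 10 (gpdh-1) had an unadjusted p under 0.05 against 3.47%. For bcl-11(bon125) against wt, 0 of 10 were called against 0% of 13459 genes, and 0 of 10 had an unadjusted p under 0.05 against 1.55%. For bcl-11(bon144) against wt, 0 of 10 were called against 0.0669%, and 2 of 10 (lea-1 and gpdh-1) had an unadjusted p under 0.05 against 7.1%. The bcl-11(bon144) count is the one that moved with the processing: lea-1 was called under 4 of the alternatives given with its values.

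With both double mutants averaged against daf-2, 0 of 10 genes were called against 0.0282%, and 2 of 10 (gpdh-1 and tre-3) had an unadjusted p under 0.05 against 4.1%. With both alleles averaged against wt, 0 of 10 were called against 0.0371%, and 1 of 10 (lea-1) had an unadjusted p under 0.05 against 3.84%. Between bon144 double mutants and bon125 double mutants, 0 of 10 were called against 0.0494%, and 0 of 10 had an unadjusted p under 0.05 against 3.24%. Between bcl-11(bon144) and bcl-11(bon125), 0 of 10 were called against 0.0446%, and 1 of 10 (lea-1) had an unadjusted p under 0.05 against 5.68%. For the bon125 effect in the daf-2 background minus that in the wild-type background, 0 of 10 were called against 0% of 13131 genes, and 2 of 10 (gpdh-1 and tre-3) had an unadjusted p under 0.05 against 3.39%. For the bon144 effect, 0 of 10 were called against 0.0609%, and 1 of 10 (lea-1) had an unadjusted p under 0.05 against 2.72%.

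Complete separation of the 4 mutant from the 4 control libraries was seen for 2 genes. It was seen for gpdh-1 in bon125 double mutants against daf-2, 1 gene of 10 beside 1.77% of all genes tested, and for lea-1 in bcl-11(bon144) against wt, 1 gene of 10 beside 4.13%. In bon144 double mutants against daf-2 it was seen for 0 of 10 genes beside 2.31%, and in bcl-11(bon125) against wt for 0 of 10 beside 1.95%. The median change over the 10 genes was 0.0079 on the log2 scale for bon125 double mutants, -0.0094 for bon144 double mutants, -0.13 for bon125 single mutants and -0.04 for bcl-11(bon144). Over all genes tested the same medians were -0.0035, -0.0045, -0.01 and 0.0081.

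**Figure D2:**
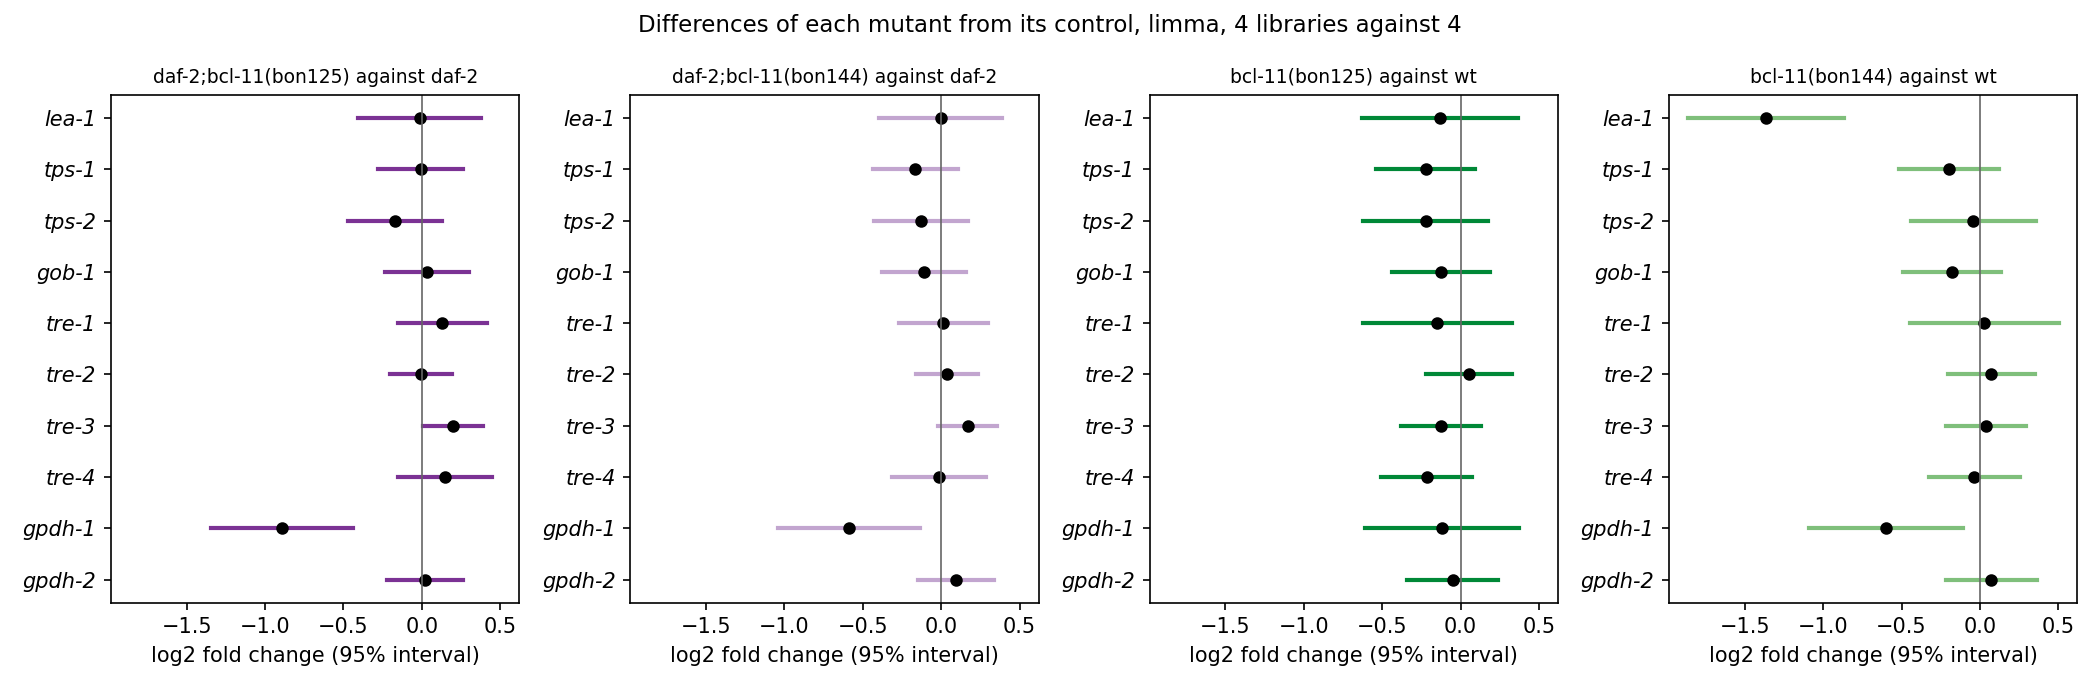
Log2 fold change of each gene (points) with its 95% interval (lines) from limma in the 4 comparisons of a mutant with its control, 4 libraries against 4 in each. The intervals exclude 0 for gpdh-1 and tre-3 in bon125 double mutants, for gpdh-1 in bon144 double mutants, and for lea-1 and gpdh-1 in bcl-11(bon144), before adjustment for the number of genes.

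lea-1, which encodes an LEA protein, had the lowest adjusted p of the 10 genes. It measured 11.62, 12.66, 12.27 and 12.82 in bcl-11(bon144) replicates 1 to 4, against 13.48, 13.92, 13.91 and 13.53 in wt. All 4 bcl-11(bon144) libraries lay below all wt libraries, and hence each also below the wt library of its own batch. The means were 12.34 ± 0.53 in bon144 single mutants and 13.71 ± 0.24 in wt (SD, n = 4 each). The log2 fold change was -1.37 (SE 0.23, 95% interval -1.87 to -0.87) with a limma adjusted p of 0.0617, rank 10 of 13459 genes by p. In bcl-11(bon125) lea-1 measured 13.55, 13.65, 13.82 and 13.30, which overlaps the wt range, and the log2 fold change was -0.13 (95% interval -0.63 to 0.37). The difference between bcl-11(bon144) and bcl-11(bon125) was -1.24 (95% interval -1.73 to -0.74, limma adjusted p = 0.148).

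The side of the threshold on which lea-1 fell in bcl-11(bon144) depended on the processing. The limma adjusted p was 0.0424 with genes of mean rLog of at least 5, 0.0336 after quantile normalization, 0.0126 with library weights and 0.0232 without bcl-11(bon144) replicate 1, the lowest library, where the log2 fold change was -1.13. Over all alternatives the adjusted p ranged from 0.0126 to 0.226 and the log2 fold change from -1.53 to -0.97. The value of -0.97 came from leaving out bcl-11(bon144) replicates 1 and 3 together, a choice made after seeing the data, with an adjusted p of 0.111.

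Markers of oocytes and eggshell moved with lea-1 from library to library. Their mean level over 3 genes (rme-2, the yolk receptor, and the eggshell genes cbd-1 and perm-2) was 12.95, 14.29, 13.92 and 13.98 in bcl-11(bon144), against 13.81, 14.35, 14.30 and 14.22 in wt. The mean was 13.79 ± 0.58 in bon144 single mutants and 14.17 ± 0.25 in wt, so the groups overlapped, and 0 of the 3 genes were called by limma, with log2 fold changes of -0.60 for perm-2, -0.31 for rme-2 and -0.24 for cbd-1. The 2 germ line markers, pgl-1 and glh-1, averaged 12.51 in bon144 single mutants and 12.51 in wt, and were lowest at 11.75 in bcl-11(bon144) replicate 1. Over the 24 libraries, deviations of lea-1 from its genotype means had a Pearson's r of 0.823 with those of the oocyte and eggshell markers (0.936 in the daf-2 background and 0.758 in the wild-type background, 12 libraries each). The part of these cells in the lea-1 difference was not tested.

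In the daf-2 background lea-1 was high in every library and did not separate by genotype. It measured 14.97, 14.38, 14.62 and 15.05 in bon125 double mutants and 14.93, 14.54, 14.69 and 14.89 in bon144 double mutants, against 14.95, 14.52, 15.06 and 14.55 in daf-2. The log2 fold change against daf-2 was -0.01 (95% interval -0.40 to 0.38) in bon125 double mutants and -0.0035 (95% interval -0.39 to 0.39) in bon144 double mutants. A fall as large as that of bcl-11(bon144) against wt lies outside both intervals. The bon144 effect in the daf-2 background minus that in the wild-type background was 1.36 (SE 0.30, 95% interval 0.74 to 1.99), with a limma adjusted p of 0.175 over 13131 genes, so the difference between backgrounds did not pass the test. That fit used 1 spread for all genotypes, while the SD of lea-1 was 0.53 in bcl-11(bon144) and 0.18 in bon144 double mutants.

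The trehalose-6-phosphate synthase genes tps-1 and tps-2 did not differ beyond replicate spread between any bcl-11 genotype and its control. tps-1 measured 9.32, 9.44, 9.70 and 9.60 in bon125 double mutants and between 9.28 and 9.43 in bon144 double mutants, against 9.35, 9.83, 9.27 and 9.66 in daf-2. In the wild-type background it measured 8.16, 8.17, 7.86 and 7.66 in bon125 single mutants and 7.75, 8.05, 8.01 and 8.14 in bcl-11(bon144), against 8.17, 8.12, 8.42 and 8.04 in wt. The mutant ranges overlap those of the controls in each case. The 95% intervals of the log2 fold change ran from -0.28 to 0.26 for bon125 double mutants, -0.44 to 0.10 for bon144 double mutants, -0.54 to 0.09 for bon125 single mutants and -0.52 to 0.12 for bcl-11(bon144).

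tps-2 measured 10.31, 10.47, 10.41 and 10.59 in bon125 double mutants and 10.39, 10.54, 10.58 and 10.45 in bon144 double mutants, against 10.33, 10.97, 10.32 and 10.85 in daf-2. The daf-2 libraries fell into a low pair, replicates 1 and 3, and a high pair, replicates 2 and 4, and the double mutants lay between these pairs except for bon125 double-mutant replicate 1. In bcl-11(bon125) tps-2 averaged 9.52 ± 0.33 and in bcl-11(bon144) 9.70 ± 0.16, against 9.74 ± 0.33 in wt (SD, n = 4 each). Its intervals against the control ran from -0.47 to 0.13 in bon125 double mutants, -0.43 to 0.17 in bon144 double mutants, -0.62 to 0.18 in bon125 single mutants and -0.44 to 0.36 in bcl-11(bon144).

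gob-1 encodes the trehalose-6-phosphate phosphatase that completes synthesis, and worms that lack it arrest with a blocked gut. Its levels were 9.44, 9.76, 9.82 and 9.79 in bon125 double mutants and 9.49, 9.70, 9.67 and 9.38 in bon144 double mutants, against 9.47, 9.92, 9.51 and 9.77 in daf-2. In the wild-type background it averaged 9.13 ± 0.25 in bon125 single mutants and 9.08 ± 0.05 in bcl-11(bon144), against 9.26 ± 0.23 in wt. All mutant ranges overlapped those of the controls, with log2 fold changes of 0.03, -0.11, -0.13 and -0.18 in bon125 double mutants, bon144 double mutants, bcl-11(bon125) and bcl-11(bon144).

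Of the 4 trehalase genes, tre-3 was the one whose interval excluded 0 in a comparison with a control. tre-3 measured 9.31, 9.38, 9.49 and 9.28 in bon125 double mutants and 9.33, 9.38, 9.24 and 9.38 in bon144 double mutants, against 9.17, 9.31, 9.03 and 9.15 in daf-2. Each double-mutant library was above the daf-2 library of its own batch, but replicate 2 of daf-2 at 9.31 overlapped both double mutants. Both double mutants share these daf-2 libraries, and whether batches pair the libraries was not settled. The log2 fold change was 0.20 (95% interval 0.0078 to 0.39, limma adjusted p of about 1) in bon125 double mutants and 0.17 (95% interval -0.02 to 0.36) in bon144 double mutants, that is less than 1.5-fold. In the wild-type background the log2 fold changes of tre-3 were -0.12 (95% interval -0.38 to 0.13) in bon125 single mutants and 0.04 (95% interval -0.22 to 0.29) in bcl-11(bon144). The bon125 effect in the daf-2 background minus that in the wild-type background was 0.32 (95% interval 0.04 to 0.61, limma adjusted p of about 1).

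The other trehalase genes among the 10 overlapped in all 4 comparisons. tre-1 had the highest level of these 4 trehalase genes per unit of the longest transcript. It averaged 12.18 ± 0.14 in bon125 double mutants and 12.06 ± 0.25 in bon144 double mutants, against 12.04 ± 0.16 in daf-2. In the wild-type background it averaged 12.58 ± 0.28 in bon125 single mutants and 12.75 ± 0.50 in bcl-11(bon144), against 12.72 ± 0.15 in wt. The wide spread in bcl-11(bon144) came from replicate 1 at 12.01, since its other libraries had 13.14, 12.93 and 12.93. That library also had the lowest lea-1 and the lowest germ line and oocyte markers of its group. tre-2 lay between 10.24 and 10.77 in all 24 libraries, a narrow range in which no genotype stood out. tre-4 averaged 8.25 ± 0.17 in bon125 double mutants and 8.08 ± 0.15 in bon144 double mutants, against 8.10 ± 0.28 in daf-2, and 6.62 ± 0.06 in bon125 single mutants and 6.81 ± 0.16 in bcl-11(bon144), against 6.84 ± 0.21 in wt. The widest intervals for these 3 genes were those of tre-1 in the wild-type background, from -0.62 to 0.33 in bcl-11(bon125) and from -0.45 to 0.50 in bcl-11(bon144).

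gpdh-1, the glycerol-3-phosphate dehydrogenase gene known for its induction by high salt, was lower in both double mutants than in daf-2 but did not pass the test. It measured 6.89, 7.09, 6.42 and 6.73 in bon125 double mutants and 7.28, 7.14, 6.92 and 7.00 in bon144 double mutants, against 7.37, 7.71, 8.37 and 7.23 in daf-2. All bon125 double-mutant libraries lay below all daf-2 libraries, while bon144 double-mutant replicate 1 at 7.28 exceeded the lowest daf-2 library. Every double-mutant library was below the daf-2 library of its own batch, which for bon125 double mutants follows from the complete separation. Whether batches pair the libraries was not settled. In batches 1 to 4 the gaps were 0.49, 0.62, 1.95 and 0.50 for bon125 double mutants. For bon144 double mutants they were 0.10, 0.57, 1.45 and 0.23. The means were 6.78 ± 0.28 in bon125 double mutants and 7.08 ± 0.16 in bon144 double mutants, against 7.67 ± 0.51 in daf-2 (SD, n = 4 each).

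The log2 fold change of gpdh-1 was -0.89 (SE 0.21, 95% interval -1.34 to -0.44, limma adjusted p = 0.681) in bon125 double mutants, rank 16 of 14169 genes by p. It was -0.59 (SE 0.21, 95% interval -1.04 to -0.14, limma adjusted p of about 1) in bon144 double mutants. Both double mutants share the same daf-2 libraries, and 1 of these set much of the size. Without daf-2 replicate 3, the highest library at 8.37, the log2 fold change was -0.66 in bon125 double mutants and -0.35 in bon144 double mutants. With library weights it was -1.13 in bon125 double mutants (limma adjusted p = 0.156). Averaged over both double mutants it was -0.74 (95% interval -1.13 to -0.35, limma adjusted p = 0.762), and the double mutants differed from each other by 0.30 (bon144 double mutants minus bon125 double mutants, 95% interval -0.15 to 0.76).

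In the wild-type background gpdh-1 measured 7.98, 8.10, 7.37 and 7.85 in bon125 single mutants and 7.42, 6.80, 7.99 and 7.18 in bcl-11(bon144), against 8.08, 7.80, 8.08 and 7.82 in wt. Replicate 3 of bcl-11(bon144) lay within the wt range, and the other 3 lay below it. The log2 fold change was -0.12 (95% interval -0.61 to 0.37) in bon125 single mutants and -0.60 (95% interval -1.09 to -0.11, limma adjusted p = 0.629) in bcl-11(bon144). In bcl-11(bon144) it ranged from -0.81 to -0.42 when single libraries were left out, and was -0.96 without replicates 1 and 3 of bcl-11(bon144) together, the choice made after seeing the data. The bon125 effect in the daf-2 background minus that in the wild-type background was -0.77 (95% interval -1.45 to -0.09, limma adjusted p of about 1), and for bon144 it was 0.01 (95% interval -0.67 to 0.69). Deviations of gpdh-1 had an r between -0.05 and 0.259 with those of the 7 marker lists over the 24 libraries, but this range covers opposite signs in the backgrounds. With intestine markers r was -0.352 in the daf-2 background and 0.464 in the wild-type background, and with sperm markers it was -0.488 in the daf-2 background and 0.441 in the wild-type background (12 libraries each). The part of these cells in the gpdh-1 differences was not tested.

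gpdh-2, the paralog of gpdh-1, overlapped between mutant and control in all 4 comparisons. It averaged 11.39 ± 0.14 in bon125 double mutants and 11.47 ± 0.21 in bon144 double mutants, against 11.37 ± 0.06 in daf-2. It averaged 10.82 ± 0.25 in bon125 single mutants and 10.94 ± 0.19 in bcl-11(bon144), against 10.87 ± 0.07 in wt (SD, n = 4 each). Its 95% intervals of the log2 fold change were -0.22 to 0.26, -0.15 to 0.34, -0.34 to 0.24 and -0.22 to 0.36 for bon125 double mutants, bon144 double mutants, bcl-11(bon125) and bcl-11(bon144).

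Levels of the 10 genes in daf-2 and wt were set side by side without a test, because the tables of the 2 backgrounds were normalized separately. The median daf-2 minus wt difference was 0.03 over the 13131 genes kept in both tables and 0.45 over the 10 genes. tps-1 was 1.34 higher in daf-2 (9.52 ± 0.26) than in wt (8.19 ± 0.17), tre-4 was 1.26 higher in daf-2 (8.10 ± 0.28) than in wt (6.84 ± 0.21), and lea-1 was 1.06 higher in daf-2 (14.77 ± 0.28) than in wt (13.71 ± 0.24). tps-2 was 0.87 higher and gpdh-2 0.50 higher in daf-2. For these 5 genes all 4 daf-2 libraries lay above all 4 wt libraries, 5 of 10 genes beside 26.4% of all genes. The trehalase gene tre-1 went the other way, with 12.04 ± 0.16 in daf-2 and 12.72 ± 0.15 in wt, a difference of -0.68 without overlap. It was 1 of 10 genes with all daf-2 libraries lower, beside 15.5% of all genes.

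The remaining 4 genes overlapped between daf-2 and wt, with differences of 0.41 for gob-1, -0.27 for gpdh-1, -0.03 for tre-2 and -0.05 for tre-3. The difference of gpdh-1 was -0.17 without daf-2 replicate 1, -0.51 without daf-2 replicate 3 and -0.13 without daf-2 replicate 4. Among all genes kept in both tables, the difference of tps-1 stood at percentile 93.9, tre-4 at 93.0, lea-1 at 90.4 and tre-1 at 5.4. Setting the median of all 24 libraries equal lowered every daf-2 minus wt difference by 0.18, which left the sign of all 10 as it was, while tre-2 turned to 0.07 without wt replicate 1. The same differences between the bcl-11 genotypes of the 2 backgrounds were 1.55 (bon125) and 1.37 (bon144) for tps-1, 1.62 and 1.28 for tre-4, 0.93 and 0.79 for tps-2, 0.57 and 0.52 for gpdh-2, 1.17 and 2.42 for lea-1, and -1.04 and -0.26 for gpdh-1. Beside these differences, hypodermis markers averaged 5.56 ± 0.27 in daf-2 and 3.87 ± 0.13 in wt. Most of that came from dpy-7, with a difference of 3.58, while rol-6 differed by 0.48 with overlap. The remaining marker, bli-1, did not pass the filter in the wild-type background. Intestine markers averaged 12.68 ± 0.31 in daf-2 and 12.54 ± 0.34 in wt, a mean over genes that separated in opposite directions, ges-1 with a difference of 1.32 and asp-1 with -1.27. Oocyte and eggshell markers averaged 13.78 ± 0.21 in daf-2 and 14.17 ± 0.25 in wt, and germ line markers 12.01 ± 0.28 in daf-2 and 12.51 ± 0.24 in wt. The part of tissue or stage in the levels was not tested.

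**Figure D3:**
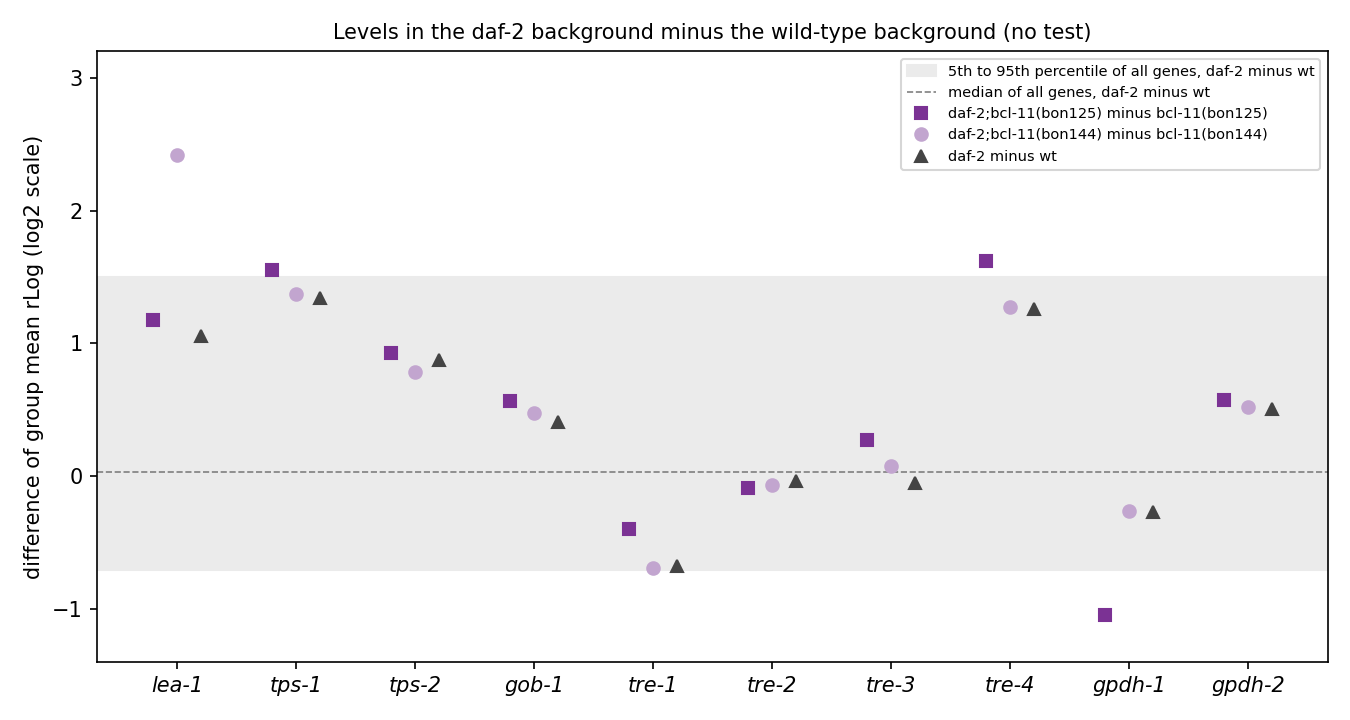
Difference of mean rLog (log2 scale) between each genotype of the daf-2 background and its counterpart of the wild-type background for the 10 genes, with the 5th to 95th percentile (grey) and the median (dashed) of daf-2 minus wt over 13131 genes; no test was made, since the tables were normalized separately. tps-1, tps-2, tre-4, lea-1, gob-1 and gpdh-2 lie above 0 in all 3 pairs and tre-1 and gpdh-1 below 0, and lea-1 reaches 2.42 in the bon144 pair.

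Other genes of these pathways were taken from 4 lists, of which none had a member called by limma in any of the 10 comparisons. For trehalose and glucose supply, 17 of 17 listed genes were tested in both backgrounds. Their median log2 fold change was -0.07 in bon125 double mutants, -0.05 in bon144 double mutants, -0.05 in bon125 single mutants and -0.17 in bcl-11(bon144), with 0, 0, 0 and 2 genes at an unadjusted p under 0.05. The shares at that p among all genes tested were 4.11%, 3.47%, 1.55% and 7.1% in the same order of mutants, and these shares apply to the counts of all 4 lists. In that list icl-1, the glyoxylate cycle enzyme gene, was named after its values were seen. Its 4 bcl-11(bon144) libraries lay below the 4 wt libraries, and 4.13% of all genes tested separated completely in that comparison. The log2 fold change was -0.90 (limma adjusted p = 0.268), the lowest log2 fold change of the 17 listed genes. For glycerol handling 15 of 17 genes were tested in the daf-2 background and 14 in the wild-type background, with 1, 1, 0 and 0 genes at an unadjusted p under 0.05 in the same order of mutants. For osmotic stress regulation, 25 of 25 and 24 genes were tested, with 0, 1, 0 and 1 such genes. For the desiccation response, 10 of 12 and 8 genes were tested, with 0, 0, 0 and 1 such genes.

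Between daf-2 and wt, again without a test, 6909 of the 13131 genes kept in both tables had a higher mean in daf-2, and the lists are given beside that count. All 8 desiccation response genes kept in both tables had a higher mean in daf-2, with a median difference of 1.05. The small heat shock protein gene hsp-12.6 had 5.02 in daf-2 and 3.21 in wt, a difference of 1.81 with the wt value near the filter's limit of 3. hsp-70 had 8.87 ± 0.99 in daf-2 and 7.43 ± 1.18 in wt, a difference of 1.45 with overlap. Of 24 osmotic stress genes, 19 had a higher mean in daf-2 (median 0.53). The largest were the cuticle collagen genes dpy-3 (8.01 in daf-2 and 4.40 in wt) and dpy-7 (8.54 in daf-2 and 4.96 in wt). Since dpy-7 is also one of the hypodermis markers, their means of 5.56 in daf-2 and 3.87 in wt are not separate from it. Another of these markers, rol-6, differed by 0.48 with overlap. Of 14 glycerol handling genes, 9 had a higher mean in daf-2 (median 0.19), led by the aquaglyceroporin gene aqp-2 (10.24 in daf-2 and 8.03 in wt) and R11F4.1 (9.84 in daf-2 and 8.71 in wt). Trehalose and glucose supply ran lower, with 14 of 17 means below wt (median -0.17). Among them was aldo-1, an aldolase gene, with 9.04 ± 0.14 in daf-2 and 9.72 ± 0.91 in wt, where the libraries overlapped. Another was gpi-1, the glucose-6-phosphate isomerase gene, with 11.72 ± 0.11 in daf-2 and 12.14 ± 0.12 in wt, without overlap. The trehalase gene tre-5, in this list and not among the 10, had 5.21 ± 0.19 in daf-2 and 5.58 ± 0.13 in wt, without overlap.

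Within genotypes the 3 genes of trehalose synthesis varied together from library to library. Over the 24 libraries, deviations from the genotype means had a Pearson's r of 0.823 for tps-1 with gob-1, 0.812 for tps-2 with gob-1 and 0.674 for tps-1 with tps-2. In daf-2, for instance, replicates 2 and 4 held the higher values of tps-1, tps-2, gob-1 and tre-4. The trehalase genes tre-2, tre-3 and tre-4 had an r of 0.638, 0.636 and 0.646 with tps-2, whereas tre-1 had an r of -0.11 with tps-2 and -0.695 with gpdh-2. gpdh-1 and tre-3 had an r of -0.386 in the daf-2 background and 0.734 in the wild-type background, and gpdh-1 and tps-2 had -0.361 in the daf-2 background and 0.567 in the wild-type background. lea-1 and tre-4 had an r of -0.913 in the daf-2 background and -0.07 in the wild-type background. These values are descriptions, since the genes of a library share its RNA, and tissue markers varied with them. Deviations of the intestine markers had an r of 0.887 with tps-2, 0.738 with gob-1, 0.511 with tps-1 and 0.540 with tre-4. With germ line markers r was -0.293 for tps-2, -0.388 for gob-1, -0.043 for tps-1, -0.706 for tre-4 and 0.771 for tre-1. For gob-1 the germ line value was -0.730 in the daf-2 background and -0.138 in the wild-type background. For tps-1 the backgrounds differed in sign, with -0.443 in the daf-2 background and 0.262 in the wild-type background.

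**Figure D4:**
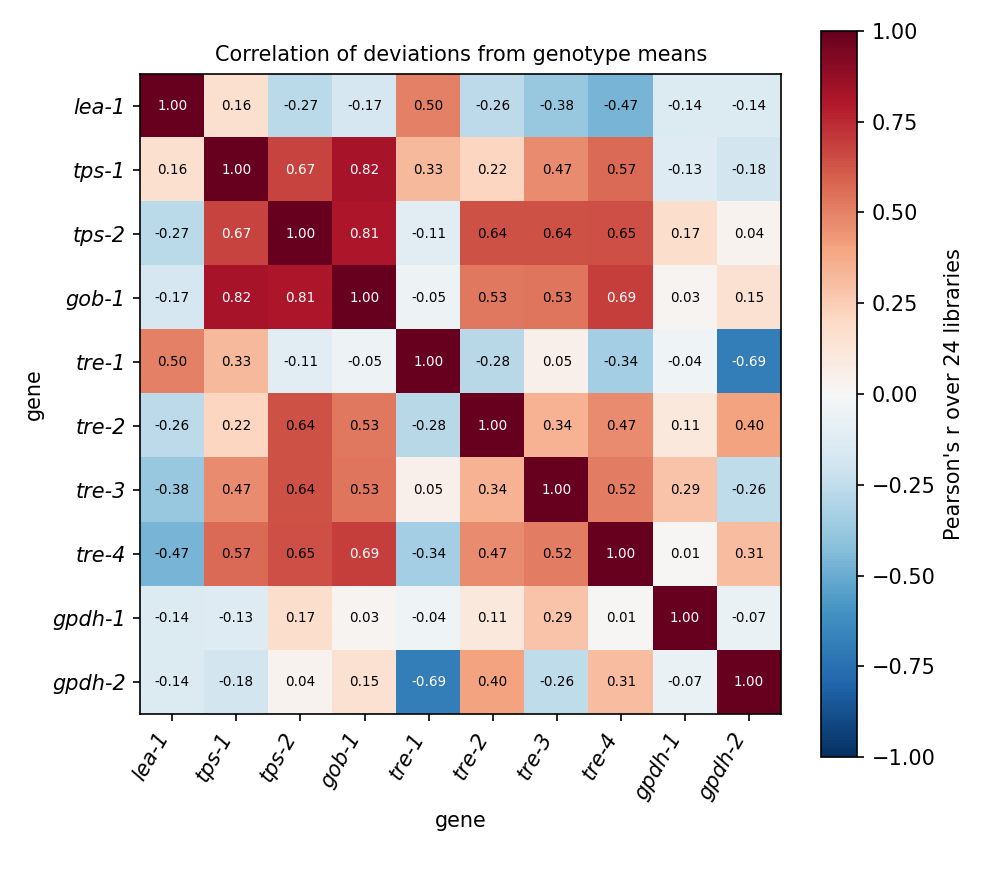
Pearson's r between the 10 genes over 24 libraries, computed on deviations of rLog from the mean of each genotype; red is positive, blue negative. tps-1, tps-2 and gob-1 have values of 0.674 to 0.823 with each other, gpdh-2 and tre-1 have the lowest value of all pairs (-0.695), and gpdh-1 lies between -0.136 and 0.288 with all others, where the backgrounds differ in sign for several pairs.

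Among all genes kept in both tables, those whose levels ran closest to lea-1 over the 12 libraries of each table were F44E7.5 and sip-1, ranked by the smaller of the 2 Pearson's r values, which was 0.884 and 0.872. F44E7.5 averaged 10.63 ± 0.32 in bon144 single mutants and 11.97 ± 0.09 in wt, and 9.39 in bon144 double mutants and 9.45 in daf-2. sip-1, a small heat shock protein gene, averaged 14.83 ± 0.48 in bon144 single mutants and 15.30 ± 0.32 in wt, and 14.98 in bon144 double mutants and 15.07 in daf-2. Closest to tps-1 were unk-1 (0.839) and the phosphoenolpyruvate carboxykinase gene pck-2 (0.804), and closest to tps-2 were gba-1 (0.879) and eps-8 (0.859). The nearest genes to gpdh-1 were less alike, Y71G12B.25 at 0.715 and C55A1.6 at 0.653. These values are descriptions over libraries of 3 genotypes per table, chosen as the highest among 13131 genes. Differences between genotypes enter the correlations, so genes picked for likeness to lea-1 tend to share its lower level in bcl-11(bon144).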

How the data were processed

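The authors made full-length cDNA by SMART-Seq2 without strand information, demultiplexed the paired-end reads with bcl2fastq 2.20 and assigned reads with Kallisto 048.0 to an Ensembl annotation of WBcel235. The deposited values are rLog, a regularized log2 transform of each gene's abundance, in 2 tables normalized separately. The tool that made the rLog values is not given in the sources used here. Every gene identifier was found in Ensembl release 115. Groups and batches came from the labels, which give the replicate number as the batch. Nothing states separate cultures, so p-values measure the spread between these libraries, which may be technical.

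Genes were kept at a mean rLog of 3 or more (13459 and 14169, 13131 in both). limma 3.58.1 in R 4.3.3 was fitted per table with 1 mean per genotype and a variance trend. P-values were two-sided and Benjamini-Hochberg adjusted over all kept genes. Differences of effects between backgrounds were fitted with 6 means. Each effect was taken within its own table, so the separate normalization cancels from these differences, except for the shrinkage of rLog. The limma step was also tested on simulated data with known changes, and every value given is from the deposited tables. The batch was no term of the fit. Same-numbered libraries of different genotypes had a mean r of deviations from group means of 0.135 in the daf-2 background (range -0.248 to 0.504). In the wild-type background it was 0.189 (range -0.080 to 0.494). Different numbers had -0.045 and -0.061, values that largely follow from the same-number ones because deviations sum to 0 within a group. Whether batches pair the libraries was not settled by this, and a fit with the replicate block was an alternative. The other alternatives were filters, centring, quantile normalization, library weights, only the 2 genotypes compared, and leaving out each library. The 10 genes and all lists were chosen with earlier results of these data known. Named were the 10 genes, bcl-11 and daf-2, from each list the called genes and the 2 with the largest daf-2 minus wt difference, and for lea-1, tps-1, tps-2 and gpdh-1 the 2 genes of highest correlation. Outside this rule, icl-1, tre-5 and the marker genes ges-1, asp-1, rol-6 and bli-1 were named after their values were seen. No sequence is shown, and depth is unknown.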

Additional observations from a re-analysis of the deposited data

Results flagged for a closer look

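Among the 60 combinations of gene and genotype, 1 library stood apart from its group by Dixon's test, in which chance picks about 1 in 20 groups. gob-1 was 9.44 in daf-2;bcl-11(bon125) replicate 1, while the other libraries of this genotype lay between 9.76 and 9.82. Replicate 1 was also low in daf-2 at 9.47.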

How the results depend on the processing

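Of the 100 differences of a gene in a comparison, 0 were called with the settings of the report and 1 under some alternative, lea-1 in bcl-11(bon144) against wt. The count of genes called in that comparison was 1 of 10 with a mean rLog of at least 5, with quantile normalization and with library weights, and ranged from 0 to 1 when single libraries were left out, being 1 without bcl-11(bon144) replicate 1. The cause was not tested. All other counts stayed at 0. With the replicate block the count was 0 in all 10 comparisons, and lea-1 in bcl-11(bon144) against wt kept its log2 fold change of -1.37 with a limma adjusted p of 0.0678. A sign change occurred under some alternative for 48 of the 100 differences, none of them above 0.17 in size. Calls over the whole table were few and moved: 1 to 17 for bcl-11(bon144) against wt (9 in the report, 2 with the replicate block), 1 to 16 for bcl-11(bon144) against bcl-11(bon125) (6, and 3 with the block), 3 to 11 for bon144 double mutants against daf-2 (8), 2 to 4 for bon125 double mutants against daf-2 (2), 3 to 11 between the double mutants (7), 1 to 7 for both alleles against wt (5, and 2 with the block), 0 to 4 for bcl-11(bon125) against wt (0, and 1 with the block), 0 to 3 for the difference of bon125 effects (0) and 4 to 15 for that of bon144 (8, and 5 with the block). The median daf-2 minus wt difference of the 10 genes was 0.27 after centring of all 24 libraries and 0.40 to 0.50 with single libraries left out, against 0.45. No value here has a counting error, because no counts were used.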
